A study of Gallus gallus with 9 samples.

Results

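The 98 chicken genes described here had a higher transcript level in cultured primordial germ cells (PGCs) that had spent 24 h without basic fibroblast growth factor (bFGF), and a lower level again once bFGF had been back for 24 h. They were chosen by measured values. A probe set, the group of short probes with which the array reads 1 transcript, became a member when its mean log2 intensity in -bFGF cells lay at least 0.5 above that in RAW cells, when its mean in +bFGF cells lay at least 0.5 below that in -bFGF cells, when its -bFGF mean was 200 units or more, and when all 3 -bFGF arrays exceeded all 6 other arrays. This gave 115 probe sets of 98 genes, out of 27168 probe sets with a single gene symbol for 13009 genes. Of the 98 genes, 83 had 1 member probe set, 13 had 2, and NLGN1 and CNTN4 had 3. A further 16 genes were left out by name, and 11 of them, with 14 probe sets, also met the thresholds. The same thresholds turned upside down, for genes that were lower without bFGF and higher again after it, were met by 158 probe sets of 122 genes. There the limit of 200 units applied to the RAW mean and no gene was left out by name, so these counts are not like those of the members.

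bFGF, also called FGF2, binds receptor tyrosine kinases at the cell surface and signals through RAS, RAF, MEK and ERK to kinases and transcription factors in the nucleus. PGCs are the embryonic precursors of eggs and sperm, and in birds they travel through the bloodstream to the gonad. The withdrawal and the replacement ask which transcripts go up and come back down with the presence of the factor, and the members range in role from cell surface proteins of nerve cells to enzymes of tryptophan, lipid and glycan metabolism.

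Transcripts were measured on 9 Affymetrix Chicken Genome arrays, 3 for each of 3 groups, of total RNA from PGCs of the Korean Oge breed. RAW cells were collected before any withdrawal, in medium with 10 ng/ml human bFGF. The -bFGF cells were collected after 24 h without bFGF (0 ng/ml), and the +bFGF cells 24 h after it was replaced at 10 ng/ml. All 3 groups came from mixed-sex blood of embryos at embryonic day 2.5, pooled before culture and grown without a feeder layer in medium with fetal bovine and chicken serum, so serum factors were present in every group. The groups are successive collections, so the absence of bFGF and a further day in culture cannot be told apart. The labels do not say whether the 3 arrays of a group came from separate cultures, so p-values measure only the spread between these arrays. A total RNA sample is a bulk measure, in which fewer cells of a type and less RNA per cell cannot be told apart.

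The deposited values are linear intensities on which every array has the same trimmed mean of 500.1 units. Array medians lay between 71.6 and 82.6 units, and the 95th percentile of 214 probe sets without a chicken transcript, taken as background, lay between 23.7 and 35.2. The germ cell markers were present: the summed intensity of 11 of them was 91868 to 99673 in RAW arrays, 80355 to 89361 in -bFGF arrays and 89589 to 94569 in +bFGF arrays, and DAZL, an RNA-binding protein of germ cells, had means of 39391, 32806 and 35273 units in these groups. The 9 endothelial markers summed to 338 to 395, 279 to 310 and 313 to 330 units, and their values went different ways. PECAM1 had means of 99.2, 102 and 92.8 units and VWF of 52.2, 54.3 and 70.0, above background, CDH5 had 24.4, 5.99 and 15.8, and CD34 had 8.69, 26.3 and 11.8, highest without bFGF as the members are, with overlapping arrays. PECAM1, the only one of the 9 bright enough to be tested, was not called on either step. Of 10 germ cell markers tested, 3 fell on withdrawal and 2 rose on replacement by the limma test described next, opposite to the members: LIN28A by -0.98 and 0.80 log2 units, CXCR4 by -0.52 and 0.60, and DAZL by -0.27 on withdrawal alone. Of 6 fibroblast and mesenchyme markers tested, 4 were lower in -bFGF than in RAW cells by the same test, and 1 of 5 neural markers, the microtubule regulator STMN2, was lower. These sets were not dim. The 11 fibroblast and mesenchyme markers summed to 8003 to 9061, 6022 to 6272 and 6791 to 7968 units. COL1A2 had means of 2385, 263 and 1865 units and COL3A1, not called on either step, 4235, 4418 and 4000. The 10 neural markers summed to 12956 to 13984, 10799 to 13210 and 12122 to 13412, with ELAVL4, not called on either step, at means of 11750, 10949 and 11278. Summed, 8 leukocyte markers came to 391 to 474 units in RAW, 376 to 414 in -bFGF and 344 to 482 in +bFGF arrays. The 7 erythroid markers came to 263 to 362, 209 to 270 and 169 to 359. For 3 thrombocyte markers the sums were 121 to 204, 84.0 to 139 and 78.2 to 167. The leukocyte marker PTPRC had means of 93.5, 123 and 102, with all -bFGF arrays above the others. CD74 had 177, 162 and 181, and neither was called on either step. Control ratios of RNA quality differed between the groups, and not all in the same direction. The log2 ratio of 3' to 5' GAPDH control probes was -0.07 to -0.05 in RAW arrays, -0.18 to -0.14 in -bFGF arrays and -0.16 to -0.08 in +bFGF arrays. That of beta-actin was 0.62 to 0.73, 0.70 to 0.78 and 0.33 to 0.59 in the same order. For a further control, EF1a, it was 0.41 to 0.44, 0.44 to 0.55 and 0.47 to 0.51. The part of the marker shifts and of RNA quality in the members' values was not tested.

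Summed over 1 probe set per gene, the 98 genes came to 44297 to 45808 units in RAW arrays, 73253 to 76228 in -bFGF arrays and 44388 to 45508 in +bFGF arrays. Without bFGF the sum was higher in every array than in any array with it, as the rule requires of each gene, and the RAW and +bFGF sums overlapped. Over the 115 probe sets, the ratio of -bFGF to RAW ran between 1.42 and 4.42 with a median of 1.65. The ratio of -bFGF to +bFGF, which has -bFGF on top, ran between 1.42 and 3.20 with a median of 1.70. At the median, what was gained without bFGF and what was lost after its return were of like size. Group means of the probe sets ran between 94.7 and 3316 units in RAW cells (median 246), between 201 and 5215 in -bFGF cells (median 416) and between 74.2 and 3359 in +bFGF cells (median 239). The median coefficient of variation within a group was 10.1% for RAW, 7.93% for -bFGF and 10.0% for +bFGF arrays. Over all 19220 probe sets tested below it was 8.13%, 7.61% and 9.02%. The rule asked for a least difference and for separated -bFGF arrays, so a spread small beside the ratios was built in. The highest of the 3 -bFGF arrays was replicate 1 in 39 probe sets, replicate 2 in 30 and replicate 3 in 46.

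**Figure D1:**
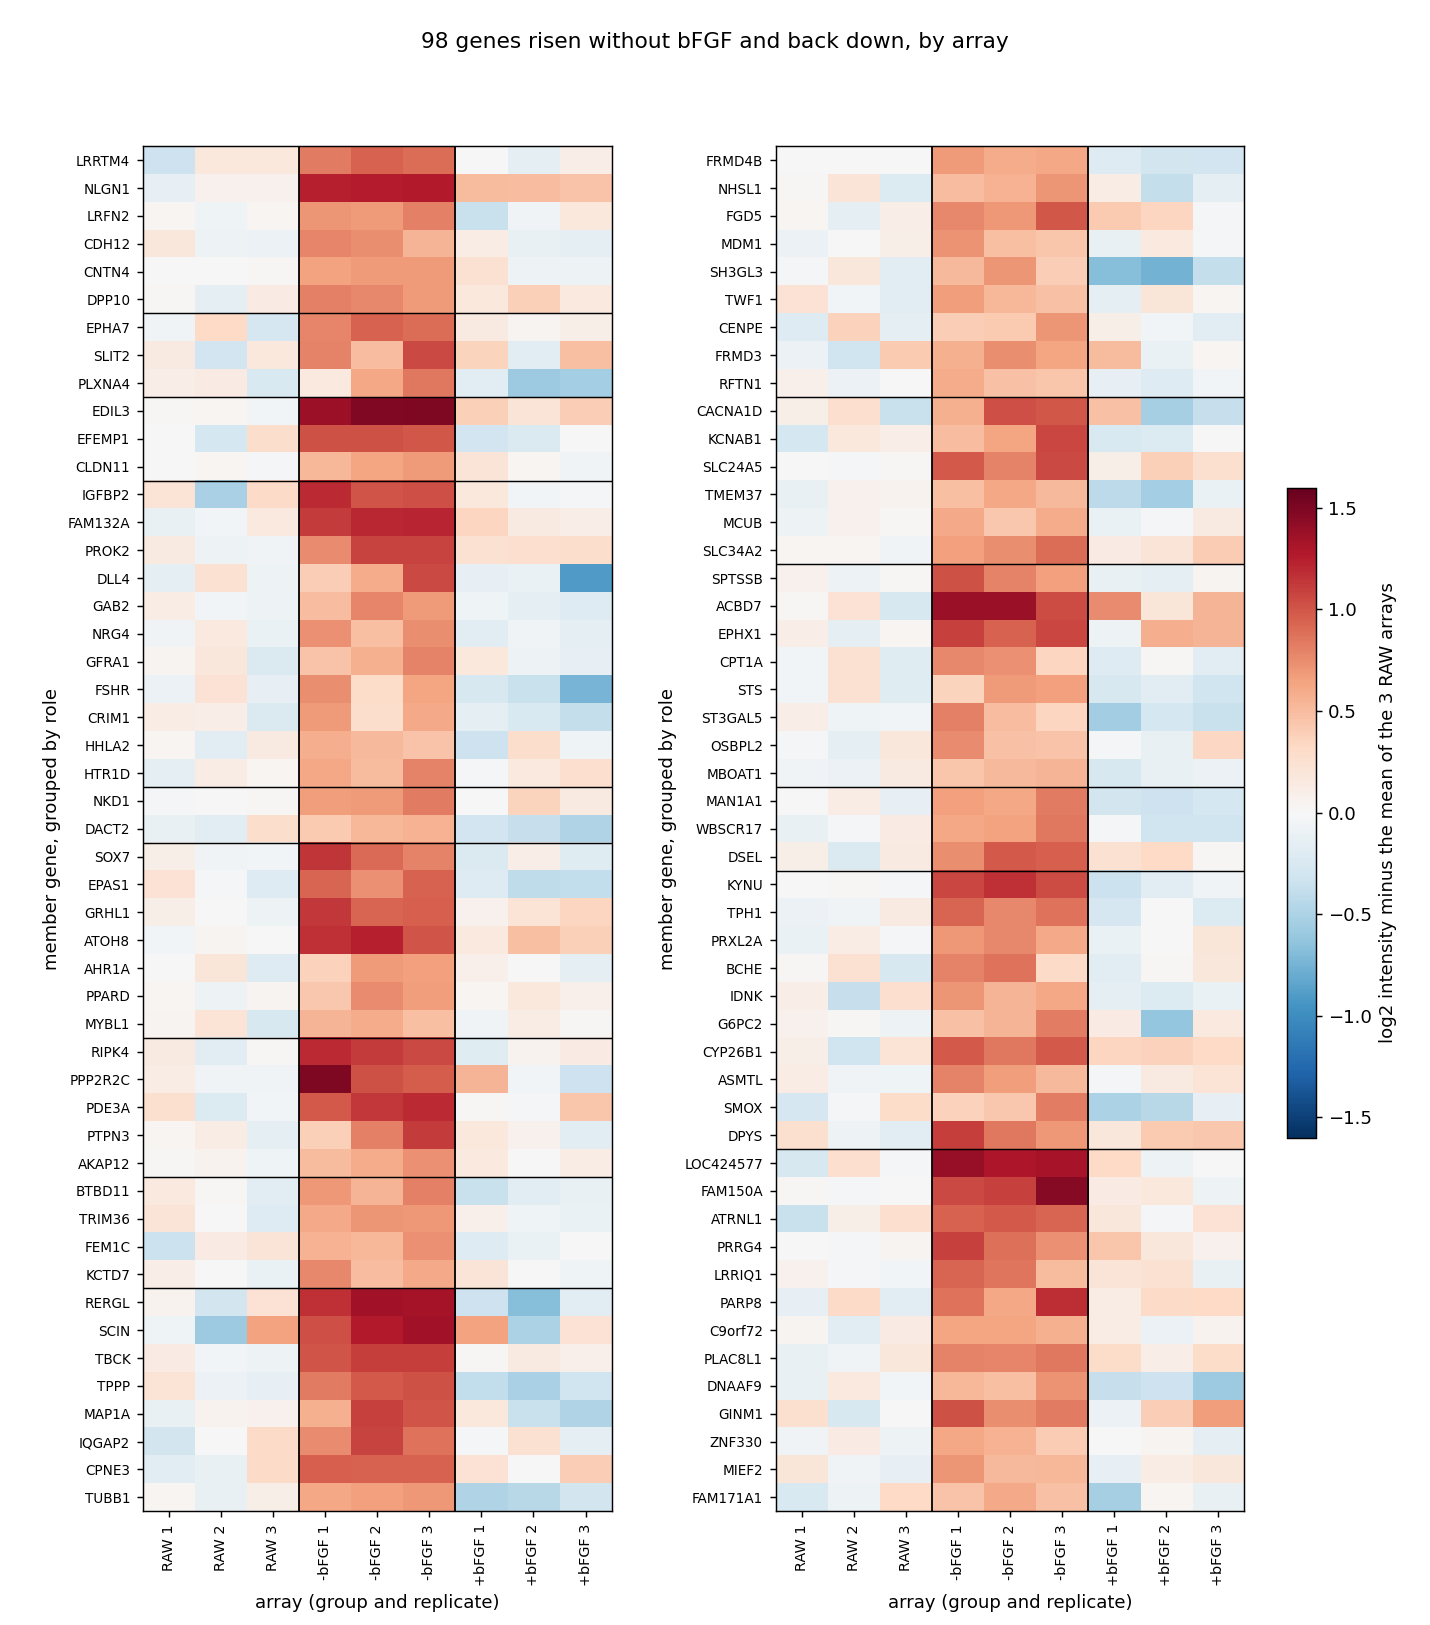
Each row is 1 of the 98 genes (its probe set with the highest -bFGF mean), grouped by role, and each column 1 of the 9 arrays; colour gives the log2 intensity minus the mean of the 3 RAW arrays. The -bFGF columns are above the RAW level throughout, which the rule fixed, while the +bFGF columns scatter on both sides of it, with 51 genes above RAW and 47 below.

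The differences between groups were also fitted with limma over all 19220 probe sets with a mean log2 intensity at or above the median, with p-values adjusted by the Benjamini-Hochberg method and a threshold of 0.05. All 115 members were among the probe sets tested. On withdrawal (-bFGF minus RAW), 106 of the 115, from 91 genes, were called risen and 0 fallen, where 5.4% of all tested probe sets were called risen and 5.33% fallen. On replacement (+bFGF minus -bFGF), 100 of the 115, from 88 genes, were called fallen and 0 risen, where 3.42% of all were called fallen and 3.37% risen. Both calls held for 94 member probe sets of 83 genes, and for 1.85% of all tested. The rule used these same differences, so the calls describe the members and support nothing, and likewise the separation of the 3 -bFGF arrays from the 6 others, which 7.71% of all tested probe sets showed. The remaining 21 members passed 1 of the tests or neither, and are given below as values: SPTSSB (the dimmer of 2 probe sets), SCIN, DLL4, BCHE, LRRTM4 (dimmer), G6PC2, FGD5, FSHR, SLIT2, PLXNA4, SMOX, GINM1, NHSL1 (dimmer), SH3GL3, MIEF2, FRMD4B (dimmer), MYBL1, FRMD3, EPAS1 (dimmer), OSBPL2 and PARP8 (dimmer). For some genes below, all +bFGF arrays lay above or below all RAW arrays, which is a description only. Of all tested probe sets, 10.3% showed the first and 11.8% the second. Among the members, only probe sets of NLGN1, DNAAF9 and FRMD4B were called different between +bFGF and RAW cells.

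**Figure D2:**
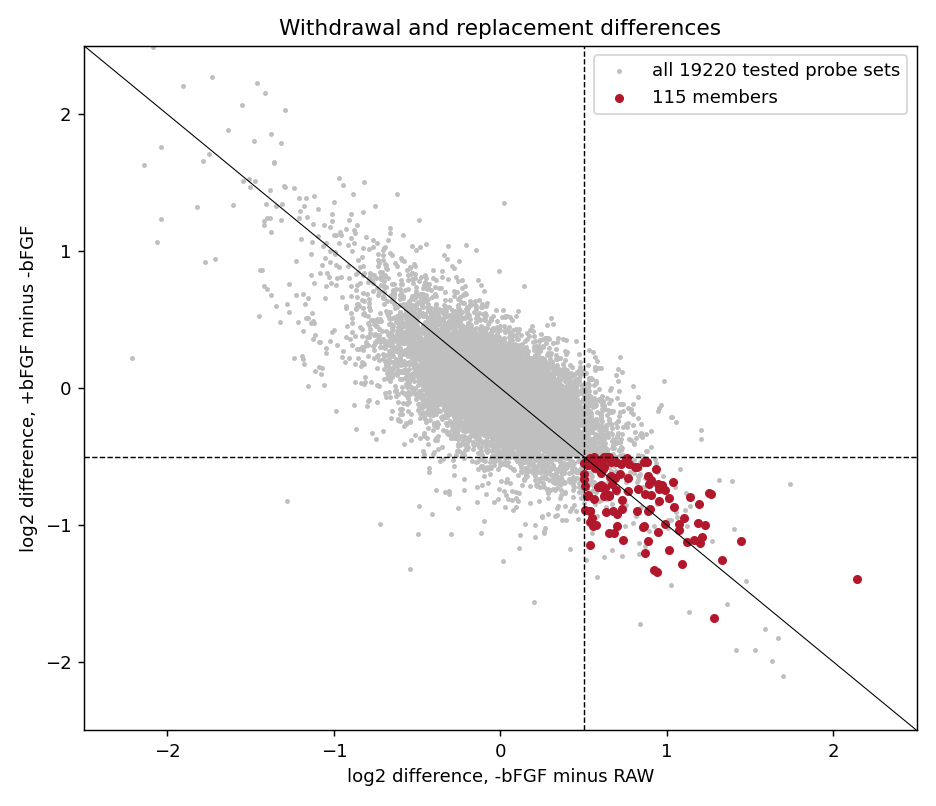
Each point is a probe set, with its log2 difference on withdrawal (-bFGF minus RAW) on the horizontal axis and on replacement (+bFGF minus -bFGF) on the vertical axis; the 115 members are red, all 19220 tested probe sets grey, and 11 of the latter lie outside the axes. The members fill the lower right corner because the dashed thresholds of 0.5 and -0.5 put them there, and points on the diagonal have the same level in +bFGF as in RAW cells.

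The thresholds cut through a continuous spread. Just inside the withdrawal limit lay RFTN1, MBOAT1 and CENPE at 0.50, 0.50 and 0.51, and just outside it SEMA5B, HSPB9 and MCCC2L at 0.499, 0.499 and 0.496, with 56 probe sets outside on this condition alone. On replacement PARP8, OSBPL2 and HTR1D were inside at -0.50 each, and PPP6R2, NT5C1B and PIK3R1 outside at -0.497, -0.495 and -0.493, with 81 outside on this alone. The neighbours on either side of both limits were nearly equal. By the -bFGF mean, PARP8, FSHR and EPAS1 were inside at 201, 212 and 215 units and MLLT3, RASSF9 and PLPP4 outside at 199, 197 and 194, with 238 outside on this alone. The lowest -bFGF array over the highest other array was 1.01, 1.01 and 1.02 for SLIT2, PLXNA4 and CENPE inside, and 0.995, 0.988 and 0.984 for ATG7, LHFPL2 and another probe set of GINM1 outside, with 11 outside on this alone.

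Cell surface proteins of nerve cells, most of them adhesion proteins or synapse organisers, made up 6 of the genes, with 11 probe sets. NLGN1, neuroligin 1, a postsynaptic adhesion protein that binds neurexins, had 771, 888 and 889 units in the RAW arrays, 2002, 2032 and 2034 in the -bFGF arrays and 1208, 1195 and 1161 in the +bFGF arrays. Its differences were 1.25 on withdrawal and -0.77 on replacement on the log2 scale, each with a standard error (SE) of 0.0699, so that +bFGF arrays lay between the other groups without touching either. The other NLGN1 probe sets gave 1.23 and -1.001, and 1.19 and -0.84, and in these too every +bFGF array was above every RAW array. CNTN4, contactin 4, an immunoglobulin-family adhesion protein of axons, had 3262, 3262 and 3336 units in the RAW arrays, 5129, 5258 and 5258 in the -bFGF arrays and 3876, 3107 and 3093 in the +bFGF arrays. Its differences were 0.67 and -0.64 (SE 0.0759), and those of its dimmer probe sets were 0.99 and -0.75, and 0.99 and -0.99. LRRTM4, a leucine-rich repeat protein of excitatory synapses, had 126, 177 and 177 units in the RAW arrays, 281, 304 and 293 in the -bFGF arrays and 159, 142 and 171 in the +bFGF arrays. The -bFGF arrays of LRRTM4 stood clear of the rest and the RAW and +bFGF arrays overlapped, with differences of 0.89 and -0.90 (SE 0.158). Its dimmer probe set missed both tests, with 0.62 and -0.72, and without RAW replicate 1 the first of these was 0.36. LRFN2, a synaptic adhesion protein, CDH12, a cadherin of the brain, and DPP10, which associates with voltage-gated potassium channels, rose by 0.73, 0.69 and 0.75 log2 units on withdrawal and changed by -0.82, -0.74 and -0.52 on replacement.

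Of 3 axon guidance genes, 1 passed both tests. EPHA7, a receptor tyrosine kinase for ephrin-A ligands, had 243, 314 and 209 units in the RAW arrays, 432, 484 and 467 in the -bFGF arrays and 279, 261 and 269.9 in the +bFGF arrays. It rose by 0.87 and then fell by 0.77 (SE 0.138), with RAW and +bFGF arrays overlapping. SLIT2, a secreted ligand of Robo receptors, had 273, 199.8 and 279.7 units in the RAW arrays, 428, 348 and 514 in the -bFGF arrays and 318, 222 and 345 in the +bFGF arrays. The SLIT2 difference on replacement was -0.55 (SE 0.190, limma adjusted p = 0.109), and its lowest -bFGF array stood barely above its highest +bFGF array; without +bFGF replicate 2 that difference was -0.36. PLXNA4, a plexin that receives semaphorin signals, had 452, 459.9 and 353 units in the RAW arrays, 466, 645 and 753 in the -bFGF arrays and 368, 281 and 286 in the +bFGF arrays. Here the withdrawal difference of 0.54 missed the test (limma adjusted p = 0.0592), with 1 -bFGF array just above the RAW arrays, while the replacement difference of -0.98 passed it.

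Matrix and junction proteins were 3 genes, and all 3 passed both tests. EDIL3, a secreted protein that binds integrins, had 119.8, 120.4 and 114 units in the RAW arrays, 304, 329 and 333 in the -bFGF arrays and 154, 137 and 156 in the +bFGF arrays. Its withdrawal difference of 1.45 was the highest of the 98 genes at 1 probe set per gene, and its replacement difference was -1.12 (SE 0.133). Every +bFGF array was above every RAW array, but the difference between these groups was not called (limma adjusted p = 0.215). EFEMP1, also called fibulin 3, an extracellular matrix glycoprotein, had 236, 193 and 286 units in the RAW arrays, 478, 478 and 466 in the -bFGF arrays and 191, 201 and 237 in the +bFGF arrays. The 3 -bFGF arrays of EFEMP1 lay close together, and the lowest of them was 1.63 times the highest array of the other groups, with differences of 1.01 and -1.18 (SE 0.145). CLDN11, a claudin of tight junctions, had 463, 475 and 453 units in the RAW arrays, 668, 716 and 744 in the -bFGF arrays and 534, 473 and 445 in the +bFGF arrays. Its differences were smaller, 0.61 and -0.55 (SE 0.0916), and its RAW and +bFGF arrays overlapped.

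Ligands, receptors and their adaptors were 11 genes, of which 9 passed both tests. IGFBP2, which binds insulin-like growth factors outside the cell, had 189.7, 114 and 202 units in the RAW arrays, 372, 329 and 334 in the -bFGF arrays and 183, 159 and 162 in the +bFGF arrays. The RAW arrays were the most spread of its 3 groups and still lay below all -bFGF arrays, with differences of 1.08 and -1.04 (SE 0.191). FAM132A, a secreted protein also called adipolin, had 161, 169 and 195 units in the RAW arrays, 380.1, 404 and 407 in the -bFGF arrays and 222, 192 and 188 in the +bFGF arrays. It rose by 1.19 and then fell by 0.99 (SE 0.126). GFRA1, the co-receptor through which glial cell line-derived neurotrophic factor reaches the kinase RET, had 3383, 3749 and 2815 units in the RAW arrays, 4518, 4885 and 5721 in the -bFGF arrays and 3699.6, 3117 and 3002 in the +bFGF arrays. Its differences were 0.61 and -0.62 (SE 0.110), and the RAW and +bFGF arrays overlapped. DLL4, a Notch ligand, had 219.9, 289 and 231 units in the RAW arrays, 322, 369.9 and 508 in the -bFGF arrays and 223, 228 and 131 in the +bFGF arrays. The withdrawal difference of DLL4, 0.68 (SE 0.218), missed the test (limma adjusted p = 0.0632) and the replacement difference of -1.06 passed it, with 1 low +bFGF array. FSHR, the receptor of follicle-stimulating hormone, had 134, 167 and 131 units in the RAW arrays, 240.4, 175 and 221 in the -bFGF arrays and 119, 112 and 85.1 in the +bFGF arrays. It likewise passed on replacement, -1.01, and not on withdrawal, 0.56 (SE 0.190), and every +bFGF array was below every RAW array. PROK2, a secreted peptide that acts on G protein-coupled receptors, rose by 0.97 and fell by 0.71. NRG4, a ligand of the ERBB4 receptor, and GAB2, a docking adaptor of receptor tyrosine kinases, rose by 0.65 and 0.65 and changed by -0.78 and -0.79. The other 3 were CRIM1, a membrane protein that binds bone morphogenetic proteins, HHLA2, a member of the B7 family of T cell regulators, and HTR1D, a serotonin receptor, with withdrawal differences of 0.53, 0.52 and 0.64 and replacement differences of -0.78, -0.56 and -0.50.

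**Figure D3:**
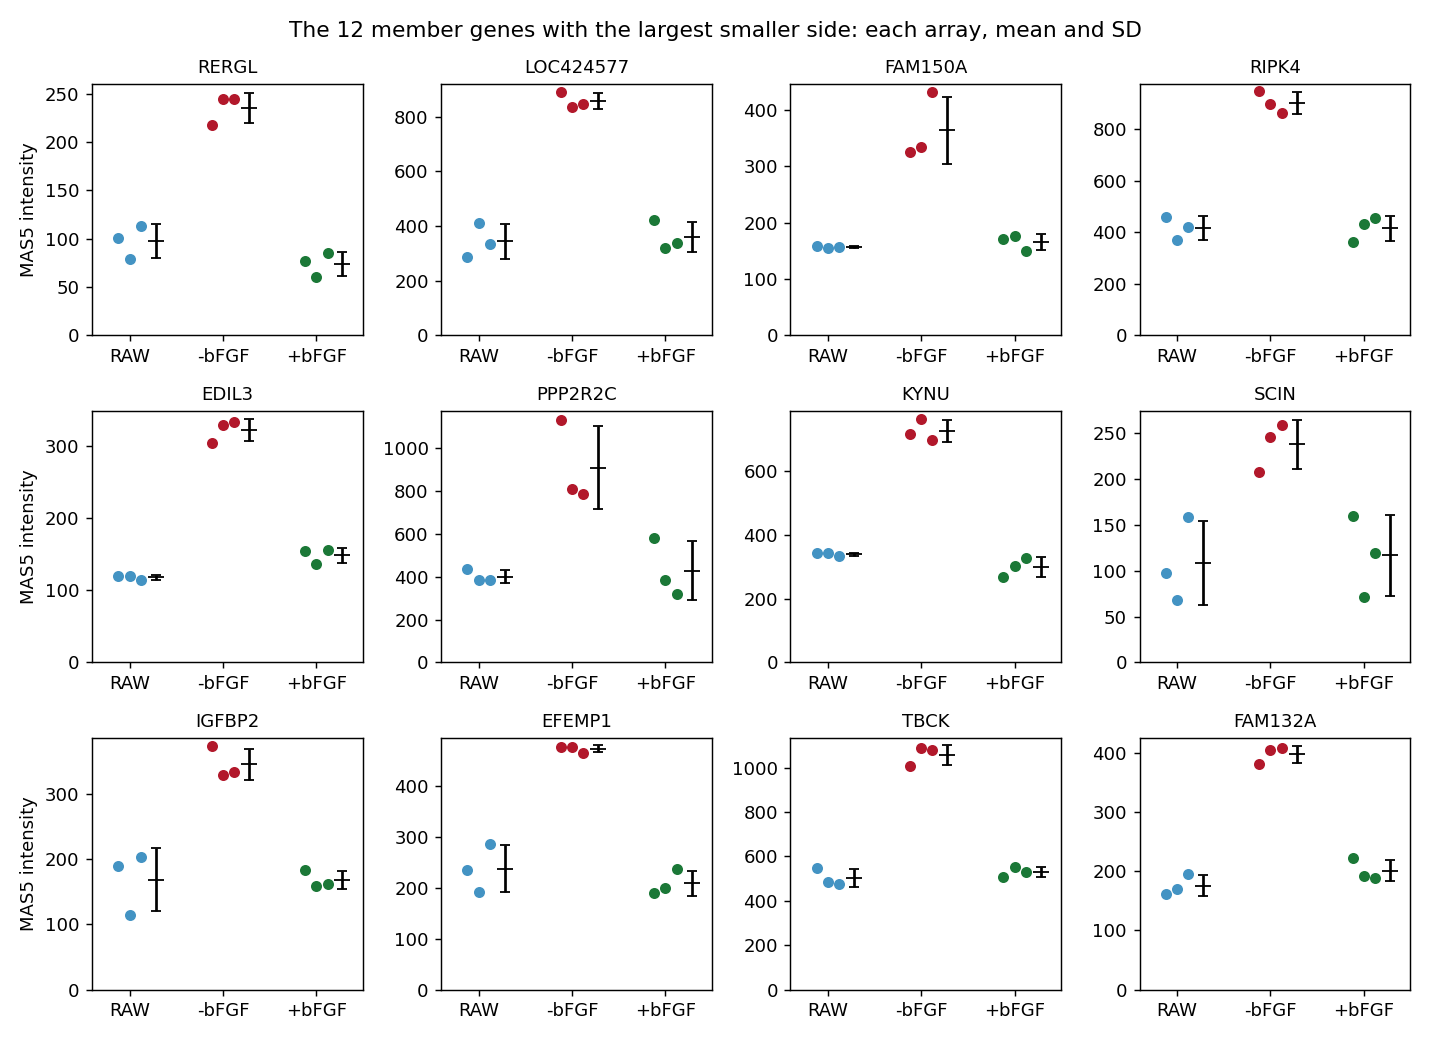
Each panel is 1 of the 12 genes with the largest smaller side, the smaller of the withdrawal and the replacement difference; points are single arrays, and the bar beside each group is the mean with the SD of its 3 arrays, as linear intensity. In all 12 the -bFGF points lie above the RAW and +bFGF points, as the rule requires, and SCIN and PPP2R2C have the widest scatter within a group relative to its mean, with coefficients of variation up to 42.6% and 31.8%.

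Inside the cell, 5 genes encode kinases, phosphatases or proteins of cyclic AMP signalling, and all 5 passed both tests. RIPK4, a serine/threonine kinase, had 460.2, 370.4 and 420.1 units in the RAW arrays, 949, 899 and 864 in the -bFGF arrays and 363, 432 and 456 in the +bFGF arrays. Its mean returned to the RAW level within 0.109 (SE), the net difference rounding to 0.00, after differences of 1.12 and -1.12. PPP2R2C, a regulatory subunit of protein phosphatase 2A, had 435, 385 and 384 units in the RAW arrays, 1133, 809 and 786 in the -bFGF arrays and 582, 387 and 319 in the +bFGF arrays. One of its -bFGF arrays and 1 of its +bFGF arrays stood well above their replicates, and its differences were 1.16 and -1.11 (SE 0.188). PDE3A, a phosphodiesterase that breaks down cyclic AMP, had 160.0, 116 and 131 units in the RAW arrays, 266, 294 and 306 in the -bFGF arrays and 136, 133 and 183 in the +bFGF arrays. AKAP12, a scaffold that anchors protein kinase A, had 897, 919.6 and 847 units in the RAW arrays, 1264, 1336 and 1476 in the -bFGF arrays and 988, 893 and 965 in the +bFGF arrays. The differences of PDE3A were 1.10 and -0.95 (SE 0.171) and those of AKAP12 0.61 and -0.52 (SE 0.0775), and in both genes RAW and +bFGF arrays overlapped. PTPN3, a tyrosine phosphatase, rose by 0.77 and fell by 0.75.

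Among 6 genes of ion channels and transporters, CACNA1D, the pore-forming subunit of an L-type calcium channel, had 222, 249 and 161 units in the RAW arrays, 307, 426 and 413 in the -bFGF arrays and 288, 143 and 161 in the +bFGF arrays. Its differences of 0.86 and -1.01 passed both tests with a wide SE of 0.241, and its highest +bFGF array came near its lowest -bFGF array. KCNAB1, a potassium channel beta subunit, and TMEM37, a small membrane protein related to calcium channel gamma subunits, rose by 0.73 and 0.54 and changed by -0.89 and -0.90. MCUB, which dampens the mitochondrial calcium uniporter, and the exchanger SLC24A5, which moves sodium, calcium and potassium, rose by 0.54 and 0.95 and changed by -0.53 and -0.70. SLC34A2, a sodium-phosphate cotransporter, rose by 0.76 and fell by 0.51, with all +bFGF arrays above all RAW arrays.

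Transcription factors were 7 of the members, and 6 of them passed both tests at their brightest probe set. SOX7, a SOX factor of the F group known from endothelium and endoderm, had 413, 372 and 376 units in the RAW arrays, 854, 722 and 669.8 in the -bFGF arrays and 329.7, 415 and 337 in the +bFGF arrays. Its differences were 0.95 and -1.05 (SE 0.117), and RAW and +bFGF arrays overlapped. EPAS1, the hypoxia-inducible factor 2 alpha subunit, had 497, 413 and 366 units in the RAW arrays, 802, 702 and 814 in the -bFGF arrays and 366, 319 and 321 in the +bFGF arrays. Each +bFGF array of EPAS1 was below each RAW array, the closest pair by less than the rounding shown, after differences of 0.87 and -1.203 (SE 0.118), whereas its dimmer probe set, with 0.62 and -0.50, overlapped between these groups and missed the replacement test. SOX7 and EPAS1, like DLL4 above, are also known from endothelium. The 9 endothelial markers, given above, summed to less in every -bFGF array than in any array of the other groups. This sum cannot show a change in endothelial cells, because several of the markers that fell had means near or below background. LMO2 had 29.3 units in RAW and 7.35 in -bFGF cells, and TIE1 27.6 and 5.95. PECAM1, VWF and TAL1 were above background in all 3 groups. Of these, TAL1 was lower in -bFGF than in RAW cells (49.5 and 72.4 units, with overlapping arrays), and PECAM1 and VWF were not. The part of endothelial cells in the values of SOX7, EPAS1 and DLL4 was not tested. ATOH8, a basic helix-loop-helix factor, had 98.4, 105 and 101 units in the RAW arrays, 228, 239.6 and 204 in the -bFGF arrays and 113, 142 and 132 in the +bFGF arrays. It rose by 1.14 and fell by 0.80 (SE 0.158), and all 3 +bFGF arrays were above all RAW arrays. GRHL1, a grainyhead-like factor of epithelia, rose by 1.01 and fell by 0.80. The ligand-activated factors AHR1A, an aryl hydrocarbon receptor, and PPARD, a nuclear receptor for fatty acids, rose by 0.57 and 0.62 and changed by -0.59 and -0.52. MYBL1, a MYB factor known for its role in meiosis of mouse spermatocytes, rose by 0.54, and its difference of -0.51 on replacement missed the test. NKD1 and DACT2, which bind Dishevelled and dampen Wnt signalling, rose by 0.72 and 0.51 and changed by -0.56 and -0.89, and DACT2 was lower in each +bFGF array than in each RAW array at both of its probe sets.

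The cytoskeleton, the cell membrane and small GTPases made up 17 of the genes. RERGL, a GTPase of the RAS family, had 101, 79.1 and 114 units in the RAW arrays, 218, 245 and 244 in the -bFGF arrays and 76.8, 60.5 and 85.2 in the +bFGF arrays. Its replacement difference of -1.68 was the largest of all members and its withdrawal difference was 1.28 (SE 0.198), and the lowest -bFGF array was 1.92 times the highest array of the other groups. SCIN, scinderin, which severs actin filaments, had 97.7, 68.5 and 159 units in the RAW arrays, 208, 246 and 259 in the -bFGF arrays and 160.1, 71.9 and 119 in the +bFGF arrays. SCIN rose by 1.21 and its difference of -1.09 on replacement missed the test (limma adjusted p = 0.0511), with scattered RAW and +bFGF arrays and an SE of 0.308. TBCK, a protein with a kinase-like and a RAB GTPase-activating domain, had 550.2, 486 and 476 units in the RAW arrays, 1007, 1087 and 1079.5 in the -bFGF arrays and 509, 554 and 531 in the +bFGF arrays. It rose by 1.07 and fell by 0.99 (SE 0.0842) at this probe set. Further TBCK probe sets, given below, were close to level. TPPP, which promotes tubulin polymerisation, had 143, 115 and 111 units in the RAW arrays, 217, 240.1 and 247 in the -bFGF arrays and 93.1, 85.5 and 98.3 in the +bFGF arrays. MAP1A, a microtubule-associated protein of neurons, had 189, 214 and 216 units in the RAW arrays, 304, 441 and 413 in the -bFGF arrays and 231, 161 and 147 in the +bFGF arrays. TPPP and MAP1A rose by 0.94 and 0.89 and changed by -1.35 and -1.12 (SE 0.164 and 0.182), and only TPPP had every +bFGF array below every RAW array. IQGAP2, a scaffold of CDC42 and RAC, had 262, 320.0 and 396 units in the RAW arrays, 544, 678 and 586 in the -bFGF arrays and 313, 380.1 and 289 in the +bFGF arrays. It rose by 0.90 and fell by 0.88 (SE 0.152). SH3GL3, an endophilin of endocytic vesicles, had 161, 187 and 146 units in the RAW arrays, 234, 267 and 214 in the -bFGF arrays and 102, 97.2 and 126 in the +bFGF arrays. The SH3GL3 difference missed the test on withdrawal (0.54, SE 0.166) and passed it on replacement (-1.14). The remaining 10 genes included CPNE3, a calcium-dependent phospholipid-binding copine, TUBB1, a beta-tubulin, TWF1, which binds actin monomers, and CENPE, a kinesin of the kinetochore, which rose by 0.95, 0.65, 0.56 and 0.51 and changed by -0.74, -1.06, -0.54 and -0.55. A brighter CENPE probe set that did not meet the rule had means of 1800, 2226 and 1974 units in RAW, -bFGF and +bFGF cells. It rose by 0.31, and its replacement difference of -0.18 missed the test. The FERM domain protein FRMD4B rose by 0.63 and fell by 0.91, and NHSL1, MDM1, which binds microtubules, and RFTN1, a protein of lipid rafts, rose by 0.59, 0.55 and 0.50 and changed by -0.73, -0.54 and -0.63. The dimmer probe set of FRMD4B missed the withdrawal test at 0.52 and passed on replacement at -0.79, and that of NHSL1 rose by 0.70 and missed the replacement test at -0.54. FGD5, an exchange factor for CDC42, and FRMD3 had differences of 0.82 and 0.65 on withdrawal and -0.58 and -0.50 on replacement, of which only the first, of FGD5, passed.

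Enzymes were the next large class. Of 10 genes in tryptophan, retinoid, sugar and other metabolism, KYNU, kynureninase, which acts in the breakdown of tryptophan, had 342, 344 and 334 units in the RAW arrays, 716, 765 and 698 in the -bFGF arrays and 268, 302 and 328 in the +bFGF arrays. It rose by 1.09 and fell by 1.28 (SE 0.0991), and each +bFGF array was below each RAW array. TPH1, which uses tryptophan to start serotonin synthesis, rose by 0.86 and fell by 1.02. CYP26B1, a cytochrome P450 that degrades retinoic acid, had 295, 222 and 322 units in the RAW arrays, 543, 495 and 547 in the -bFGF arrays and 351, 357 and 344 in the +bFGF arrays. It rose by 0.94 and fell by 0.59 (SE 0.129), and its +bFGF arrays were all above its RAW arrays. IDNK, a gluconokinase, PRXL2A, a peroxiredoxin-like protein, ASMTL and DPYS, a dihydropyrimidinase of pyrimidine breakdown, rose by 0.62, 0.69, 0.66 and 0.88 and changed by -0.79, -0.66, -0.54 and -0.54. BCHE, butyrylcholinesterase, and SMOX, spermine oxidase, each missed 1 test, with 0.66 and 0.54 on withdrawal and -0.65 and -0.90 on replacement. G6PC2, a glucose-6-phosphatase, missed both, with 0.61 and -0.72, and without +bFGF replicate 2 the second of these was -0.47.

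Lipid and sphingolipid metabolism supplied 8 genes. ACBD7, which binds acyl-coenzyme A, had 169, 196 and 140.1 units in the RAW arrays, 433, 436 and 343 in the -bFGF arrays and 282, 191 and 243 in the +bFGF arrays. EPHX1, the microsomal epoxide hydrolase, had 147, 124 and 138 units in the RAW arrays, 291, 261 and 285 in the -bFGF arrays and 129, 203 and 199 in the +bFGF arrays. These genes rose by 1.27 and 1.04 and changed by -0.77 and -0.69 (SE 0.171 and 0.176). SPTSSB, a small subunit of serine palmitoyltransferase, which starts sphingolipid synthesis, rose by 0.82 and fell by 0.89. Its dimmer probe set had 136, 14.0 and 134 units in the RAW arrays, 268, 298 and 275 in the -bFGF arrays and 102, 93.0 and 128 in the +bFGF arrays, so its withdrawal difference of 2.14, the highest of the 115, rests on a single RAW array and was 1.05 without it (limma adjusted p = 0.0426 with that array and 0.00364 without). On replacement this dimmer SPTSSB probe set fell by 1.39, which missed the test. ST3GAL5, which makes the ganglioside GM3, rose by 0.55 and fell by 0.95. CPT1A, which admits fatty acids to mitochondria for oxidation, STS, steroid sulfatase, and MBOAT1, a lysophospholipid acyltransferase, rose by 0.61, 0.56 and 0.50 and changed by -0.73, -0.81 and -0.66. OSBPL2, an oxysterol-binding-like protein, rose by 0.56, and its replacement difference of -0.50 missed the test.

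All 3 glycan-building genes passed both tests, with MAN1A1, a Golgi mannosidase of N-glycan trimming, WBSCR17, of the family that starts mucin-type O-glycans, and DSEL, a dermatan sulfate epimerase-like protein, at 0.70, 0.70 and 0.90 on withdrawal and -1.01, -0.92 and -0.70 on replacement. TRIM36, FEM1C, KCTD7 and BTBD11 are ubiquitin ligases, proteins that bring substrates to them, or proteins with a BTB domain. They rose by 0.67, 0.61, 0.62 and 0.68 and changed by -0.70, -0.71, -0.57 and -0.90. FEM1C and BTBD11 had another member probe set each, with 0.63 and 0.83 on withdrawal and -0.73 and -0.74 on replacement.

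A last set of 13 genes has other roles or none given here. LOC424577, a symbol without a gene name in the annotation, had 285, 411 and 336 units in the RAW arrays, 891, 834 and 845 in the -bFGF arrays and 423, 321 and 339 in the +bFGF arrays. Its lowest -bFGF array was 1.97 times the highest other array, with differences of 1.33 and -1.26 (SE 0.135). The gene annotated as FAM150A had 159, 155 and 157 units in the RAW arrays, 325, 334 and 432 in the -bFGF arrays and 172, 176 and 149 in the +bFGF arrays. It rose by 1.201 and fell by 1.13 (SE 0.143), and the newer gene table lists its identifier as a long noncoding RNA. DNAAF9, a factor named for the assembly of ciliary dynein arms, had 742, 896 and 777 units in the RAW arrays, 1161, 1119 and 1318 in the -bFGF arrays and 621, 639 and 538 in the +bFGF arrays. It rose by 0.58 and fell by 1.002 (SE 0.0983), which left each +bFGF array below each RAW array. ATRNL1, PRRG4, LRRIQ1, PARP8, C9orf72, PLAC8L1, ZNF330 and FAM171A1 rose by 0.51 to 0.95 and changed by -0.83 to -0.56 on replacement. The brightest C9orf72 probe set, which did not meet the rule, had means of 3380, 4010 and 3119 units in RAW, -bFGF and +bFGF cells. Its differences were smaller, 0.25 and -0.36. The dimmer probe set of PARP8 rose by 0.64, and its replacement difference of -0.50 missed the test. GINM1 and MIEF2, a protein of mitochondrial fission, rose by 0.86 and 0.58, and their replacement differences of -0.54 and -0.53 missed the test; without +bFGF replicate 1 that of GINM1 was -0.33.

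Where the members stood after replacement, relative to the start, was not set by the rule, although the net difference (+bFGF minus RAW) is the sum of the 2 differences that were. By mean log2 intensity 62 of the 115 probe sets were above RAW and 53 below, 85 lay within 0.25 of it, and the median was 0.02. In limma 1 probe set was called higher in +bFGF than in RAW, 0.87% of the members against 1.14% of all tested, and 2 were called lower, 1.74% of the members and 1.74% of all, both close to the share over all probe sets. At an unadjusted p under 0.05 there were 12 higher and 14 lower, 22.6% of the members against 17.8% of all tested. All 3 +bFGF arrays were above all 3 RAW arrays in 13 probe sets of 11 genes (11.3% of the members, 10.3% of all tested) and below them in 15 probe sets of 12 genes (13% of the members, 11.8% of all). The 95% interval of the net difference lay wholly within 0.5 of RAW for 67 probe sets, 58.3% of the members, against 65.8% of all tested, and for the remaining members it reached further.

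The probe set called higher was the brightest of NLGN1, with a net difference of 0.49 (SE 0.0699, limma adjusted p = 0.00292), and its other probe sets were at 0.23 and 0.35. ACBD7 had a net difference of 0.50 (SE 0.171) with 1 +bFGF array inside the RAW range, and EPHX1 and CYP26B1 each had 0.35, and none of these passed. The probe sets called lower were those of DNAAF9 at -0.42 (SE 0.0983, limma adjusted p = 0.0362) and of FRMD4B at -0.27 (SE 0.0591, limma adjusted p = 0.0257). FRMD4B had 1489, 1499.6 and 1493 units in the RAW arrays, 2394, 2256 and 2302 in the -bFGF arrays and 1289.9, 1217 and 1204 in the +bFGF arrays, so that the +bFGF arrays lay below the RAW arrays without overlap. Both calls were lost when any of the 3 RAW arrays was left out. SH3GL3, FSHR and PLXNA4 had larger net differences, -0.61, -0.45 and -0.44, with SEs of 0.166, 0.190 and 0.170, and were not called. The GM3 synthase ST3GAL5 had -0.40 at its member probe set, and 2 further ST3GAL5 probe sets that did not meet the rule were called lower, at -0.61 and -0.57. Further probe sets of SLC34A2 and HTR1D that did not meet the rule were called higher, at 0.41 and 0.37.

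**Figure D4:**
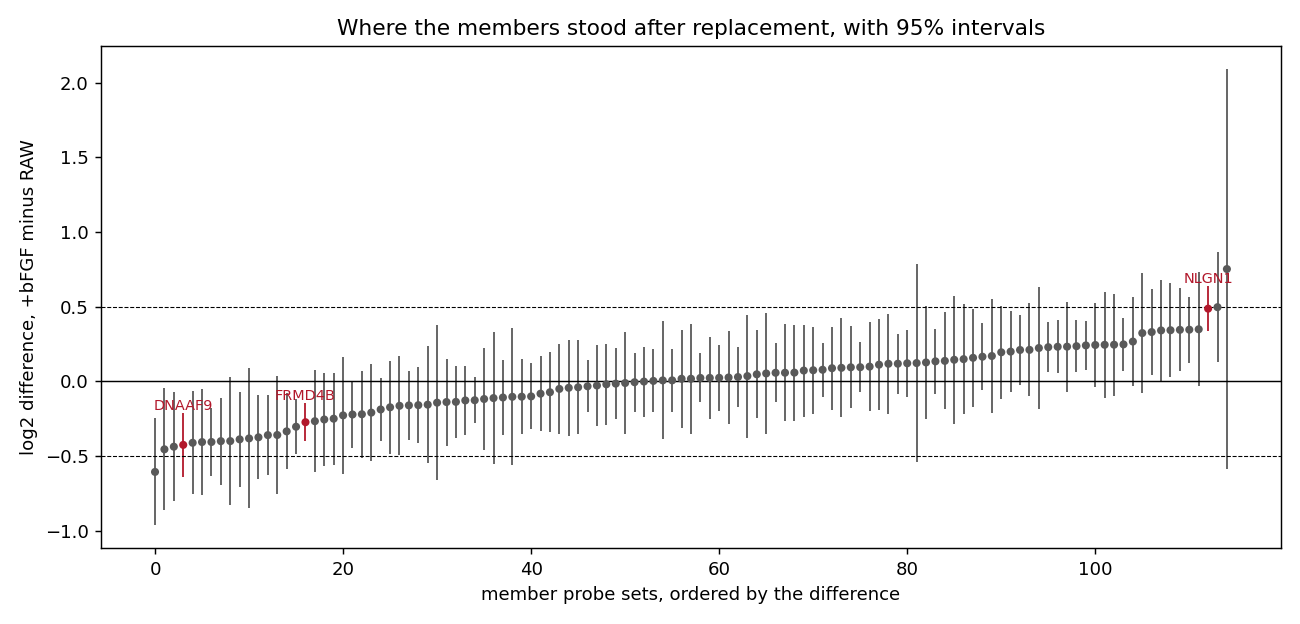
Each point is 1 of the 115 member probe sets, ordered along the horizontal axis by its log2 difference between +bFGF and RAW cells, with the 95% interval of the limma fit on the vertical axis; the 3 called probe sets are red, and dashed lines mark 0.5 above and below RAW. Most points lie close to 0, and the widest interval belongs to the dimmer SPTSSB probe set with 1 low RAW array.

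The array carries 117 further probe sets for 60 of the 98 genes, which did not meet the rule. They come from the same arrays and RNA, and those closest to the members had already been taken in, so their values are a description of how far probe sets of 1 gene go together. Of these, 54 probe sets of 38 genes were bright enough to be tested. On withdrawal 52 of the 54 were above 0, with a median difference of 0.43, and 23 (42.6%) were called risen and 0 fallen by limma (38 and 0 at an unadjusted p under 0.05). On replacement 52 were below 0, with a median of -0.47, and 20 (37%) were called fallen and 0 risen (34 and 1 at an unadjusted p under 0.05). Of all tested probe sets with a single symbol, 54.2% were above 0 on withdrawal and 54.7% below 0 on replacement. Over all 19220 tested probe sets, 5.4% were called risen on withdrawal, 3.42% fallen on replacement and 1.85% both. Both calls held for 16 of the 54, among them probe sets of FSHR, RERGL, MAP1A, ATRNL1, ST3GAL5 and AKAP12. The others that were not called on either step although they reached 200 units in -bFGF cells belonged to TBCK, MYBL1, MDM1, NHSL1, GAB2, FAM171A1, C9orf72, CRIM1, TMEM37, PARP8, OSBPL2 and LRRTM4. The clearest disagreement was that of TBCK, where 2 further probe sets had means of 487 and 258 units in RAW cells, 533 and 268 in -bFGF cells and 496 and 275 in +bFGF cells, close to level, against 504, 1058 and 531 at the member probe set. A MYBL1 probe set was level too, at 427, 468 and 468 units. Of the 63 probe sets too dim to be tested, 41 were above 0 on withdrawal and 47 below 0 on replacement.

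**Figure D5:**
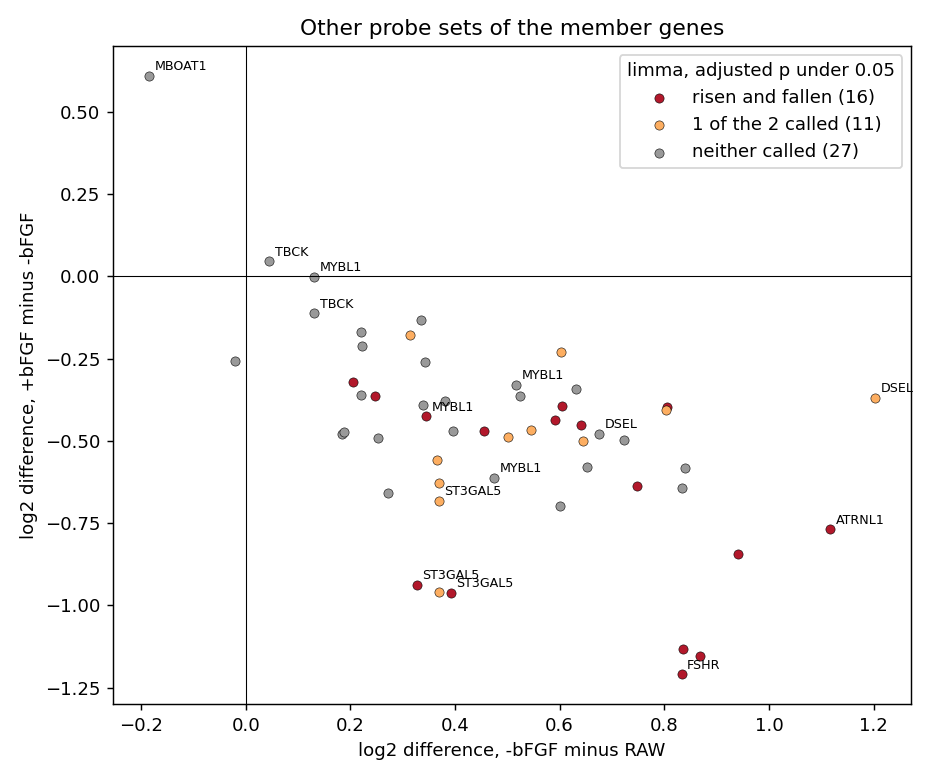
Each point is 1 of the 54 tested probe sets of member genes that did not meet the rule, with its log2 difference on withdrawal on the horizontal axis and on replacement on the vertical axis, coloured by its limma calls. Of the 54, 51 lie in the lower right quadrant, where the members lie, and the points of TBCK, MYBL1, PLXNA4 and MBOAT1 near or across the zero lines depart from it.

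Wider gene lists covered only some of the members' functions, and in each of them the members were a minority. The list of axon guidance and neural adhesion does not hold NLGN1, LRRTM4, LRFN2, CDH12 or DPP10, and none of the lists below is of lipid or glycan enzymes. Over all 9125 genes tested, at 1 probe set each, 623 rose and 547 fell on withdrawal (median difference 0.03), 367 rose and 384 fell on replacement (median -0.02), and 233 rose and then fell. Of 40 measured genes of axon guidance and neural adhesion, 4 rose and 2 fell on withdrawal and 2 rose and 5 fell on replacement. Without the members CNTN4, PLXNA4 and SLIT2, 2 of the 37 rose and 2 fell on withdrawal, and 2 rose and 3 fell on replacement. Of 44 measured genes of calcium, potassium and cyclic AMP signalling, 4 rose and 1 fell on withdrawal and 2 rose and 5 fell on replacement, and without AKAP12, CACNA1D and PDE3A 1 of the 41 rose and 1 fell on withdrawal. The members were most of the genes that rose in that list, but the rule had chosen them for rising, so this supports nothing. Of 37 receptor tyrosine kinases and ligands, with the members GFRA1 and EPHA7 among them, 4 rose and 3 fell on withdrawal and 5 rose and 3 fell on replacement. The retinoid list had 12 measured genes, of which only CYP26B1 rose on withdrawal while 2 fell. Of 39 adhesion and junction genes with CLDN11 among them, 4 rose and 7 fell on withdrawal, and of 38 ligands and receptors of secreted signals with DLL4 among them, 6 rose and 4 fell. The medians of these lists on withdrawal ran between -0.07 and 0.09.

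In the order of genes on the chicken genome, by the RefSeq annotation of assembly GRCg7b, 97 of the 98 genes were placed as protein-coding. There, 3 pairs of members were direct neighbours, ATOH8 with ST3GAL5, ATRNL1 with GFRA1, and FRMD3 with IDNK, and FAM171A1 with ACBD7 and TRIM36 with FEM1C had 2 genes between them. How many such pairs a random set of genes would hold was not worked out, so these pairs are a description only. The net differences had opposite signs in each directly neighbouring pair. They were 0.34 for ATOH8 and -0.40 for ST3GAL5, 0.13 for ATRNL1 and -0.015 for GFRA1, and 0.14 for FRMD3 and -0.16 for IDNK. The signs also differed for FAM171A1 (-0.21) and ACBD7 (0.50) and matched for TRIM36 (-0.03) and FEM1C (-0.10). None of these net differences was called, so their signs are not established.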

How the data were processed

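The authors computed 1 linear intensity per probe set and array with MAS5, whose version is not given, and deposited these values in 1 table; each array had been scaled to the same trimmed mean (2% left out at each end). Of 38535 probe sets, 96 array controls were left out. Gene symbols came from the supplied platform annotation, and only probe sets with 1 symbol were named. The identifiers of all 98 genes were found in the newer RefSeq table of GRCg7b.

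No offset or further normalization was applied before taking log2. In limma 3.58.1 (R 4.3.3) a group-means model over all 9 arrays, with a variance trend on intensity, gave two-sided tests for the 19220 probe sets with a mean log2 value at or above the median. Adjustment was by Benjamini-Hochberg within each comparison, with a threshold of 0.05. SEs and 95% intervals are moderated by limma. The fit was tested on simulated data. The study's own dChip comparisons rest on probe-level data that were not used here.

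The members follow the rule given above, with PDGFA, DIO2, DIO3, NEFM, CHL1, FST, SKIL, MYC, EOMES, LAMA1, ANXA2, CD38, CD82, SMARCA2, NR4A2 and ADM left out by name. The members and gene lists were chosen with earlier results of these data known, and roles were assigned once the members were known. Of 13 gene lists, only those that hold a member are reported. Per-array values are given for the 20 genes with the largest smaller side of the withdrawal and replacement differences, the 4 with the largest net difference in each direction, members of a list, and some chosen after their values were seen (ATOH8, FRMD4B, the dimmer SPTSSB probe set). Where a gene had several member probe sets, the one with the highest -bFGF mean stands for it.

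Alternatives were other filters, scalings and thresholds of the rule, an offset of 50, no variance trend, fits of 2 groups, a 1.2-fold null, replicate numbers as blocks, and each array left out in turn. Promoter sequences were not analysed here.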

Additional observations from a re-analysis of the deposited data

How the results depend on the processing

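The number of member probe sets, 115, was 202 with thresholds of 0.4, 70 with 0.6 and 353 with no lower limit on the -bFGF mean, and 106 to 143 with 1 array left out. With a filter at the 75th percentile 34 members were tested, of which 34 were called risen on withdrawal and 34 fallen on replacement. Tested against a 1.2-fold change, 54 were called risen and 47 fallen. With 1 array left out, 86 to 109 were called risen and 84 to 104 fallen, and 78 of the 106 risen and 78 of the 100 fallen kept their call whichever array was left out. The members were chosen on these same differences, so their withdrawal and replacement calls under any setting describe them and support nothing. Of the net calls, the 1 higher probe set became 0 against a 1.2-fold change and stayed at 1 to 2 with 1 array left out (2 without +bFGF replicate 1). The 2 lower probe sets became 1 with no filter, and 0 with no intensity trend, with only the 2 groups compared and against a 1.2-fold change. With 1 array left out they were 0 to 2, with 0 without any RAW array or without +bFGF replicate 2 or 3, and 1 without -bFGF replicate 2. Counted at 1 probe set per gene, an alternative chosen after seeing the data, the net calls were 1 higher and 2 lower. Of the other probe sets of member genes, 10 were called risen and 9 fallen of the 13 that passed the 75th percentile filter, and 3 and 5 against a 1.2-fold change. With 1 array left out, 11 to 24 were called risen and 9 to 23 fallen; the lowest counts, 11 and 9, were both without -bFGF replicate 2, 14 or 15 were risen without RAW replicate 1 or 2 or -bFGF replicate 1 or 3, and 13 were fallen without -bFGF replicate 1 or 3 or +bFGF replicate 1. The cause of these shifts was not tested beyond the smaller number of probe sets or arrays in the settings that leave some out. Quantile normalization, centring on the 75th percentile and an offset of 50 kept every count within 1.5 times. No withdrawal or replacement difference of a member gene turned its sign under any setting. The rule had separated the -bFGF arrays from all others, so with an array left out this was fixed beforehand and supports nothing. No called net difference turned its sign either. The signs of net differences that were not called, many of them near 0, were not followed.

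Arrays that share a replicate number did not deviate together (correlations of -0.21 to 0.06, against -0.15 to 0.17 for other numbers), so the numbers do not pair the samples. With the replicate number as a block, 104 members were called risen, 97 fallen, 1 net higher and 0 net lower, and 20 and 14 of the other probe sets were called risen and fallen.

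With 3 arrays per group the median half-width of the 95% interval of a net difference was 0.30 for the members, against 0.25 for all tested probe sets. The 28 member probe sets with a -bFGF mean under 300 units were nearest to background. Intensities of MAS5 have no known read or molecule count, so only the arrays limit the precision.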
